A study of Mus musculus with 40 samples.

Results

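Cytochrome P450 genes encode heme-bound monooxygenases, and the members described here are the liver P450 genes of the mouse outside a set of well-known drug, bile acid and fatty acid markers. A gene was a member if its array symbol had the form Cyp, a number, a letter and a number, if it was none of 11 named genes (Cyp3a11, Cyp2b10, Cyp2c55, Cyp2a5, Cyp17a1, Cyp4a10, Cyp4a14, Cyp7a1, Cyp7b1, Cyp8b1 and Cyp27a1), and if a probe was detected on at least 4 arrays. Detection meant a detection p-value under 0.01, which says that the probe's signal stood above the array's negative controls. Of 64 genes that fit the name, 42 passed, out of 7958 genes of all kinds that passed among the 16593 on the array. They came from 21 subfamilies and 8 families: 23 from family Cyp2, 10 from Cyp4, 2 each from Cyp1, Cyp3 and Cyp26, and 1 each from Cyp11, Cyp20 and Cyp39. The other 22 did not pass and have no values here: Cyp1a1, Cyp2b19, Cyp2c40, Cyp2c65, Cyp2d34, Cyp2j5, Cyp2j6, Cyp2j11, Cyp2j13, Cyp2s1, Cyp2u1, Cyp3a16, Cyp3a41a, Cyp3a44, Cyp4f39, Cyp4x1, Cyp11a1, Cyp11b1, Cyp21a1, Cyp24a1, Cyp27b1 and Cyp46a1.

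The livers came from 40 male C57BL/6J mice, an inbred strain, that arrived at 6 weeks of age and began a diet at 5 months. The WIS diet, made of purified ingredients, drew 46% of energy from sucrose, 24.4% from fat, and held 3.927 kcal per g. The NIA diet, an open source diet, drew 7.6% from sucrose, 17.7% from fat, and held 3.418 kcal per g. Under caloric restriction (CR) mice received 30% less food. Under meal feeding (MF) the daily amounts were set so that MF-NIA mice took in as many calories as AL-WIS and MF-WIS mice. Mice fed ad libitum (AL) on NIA took in the most calories. The CR and MF portions came once a day at 3 pm and were fixed at 14 months of age. Food lay on the cage floor for CR mice and in the hopper for MF and AL mice, so amount and place of feeding cannot be told apart. The groups held 10 CR-WIS, 9 CR-NIA, 4 MF-WIS, 6 MF-NIA, 6 AL-WIS and 5 AL-NIA arrays, 1 per liver, which the series text calls biological replicates. At what hour, and at what age, tissue was taken is not stated in these sources.

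P450 enzymes insert 1 atom of oxygen into their substrates, with electrons passed on by P450 reductase and cytochrome b5. Families Cyp1 to Cyp3 clear drugs, toxins and steroids in hepatocytes, and most of their genes respond to the xenobiotic receptors PXR (Nr1i2), CAR (Nr1i3) and AhR. Family Cyp4 hydroxylates fatty acids and eicosanoids at or near the end of the chain, and Cyp26 and Cyp39 act on retinoic acid and oxysterols. In the mouse many P450 genes lie in clusters of close copies, and several Cyp2b, Cyp2c, Cyp2d and Cyp4a genes differ strongly between the sexes.

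Levels are given in log2 units: the deposited score of a probe, which counts SDs from the mean probe of its array, times 1.51, the median SD of the log2 signals. A level of 0 is thus that of the mean probe, and detection began at about -0.40 to -0.50. Levels of different genes come from different probes and were not set against each other. Detection on the 34 arrays read (AL-NIA arrays were not) was complete for 20 members, and 6 members were detected on fewer than 20 arrays: Cyp1b1, Cyp4f16, Cyp11b2, Cyp20a1, Cyp26b1 and Cyp39a1. All differences were tested with limma over all 7958 genes, and "passed" means a Benjamini-Hochberg adjusted p under 0.05. The members varied more between mice of 1 group than genes did in general, with a median within-group SD of 0.41 against 0.23 over all genes. These SDs take in all 40 libraries, among them the 3 described below as standing apart, and were not computed without those. In bulk liver, fewer cells of a type and less RNA per cell cannot be told apart.

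Of 17 hepatocyte markers 14 were measured, 13 of them on all 34 arrays, as the label liver requires. Markers of other cell types differed between libraries, and 3 libraries stood apart. AL-WIS replicate 1 was the lowest of all 40 libraries for 21 of the 42 members, had 12 members more than 2 log2 units under its group's median, and held the highest macrophage score (3.29, where 0 is the mean of all libraries) and neutrophil score (3.09). MF-WIS replicate 4 was the lowest library for 7 members and had 9 more than 2 units under its group's median, with the highest bile duct score (0.69, over the 2 of 8 markers measured) and the lowest endothelial score (-1.08). For CR-NIA replicate 1 none of the 8 CR-NIA signal columns matched the scores (smallest largest difference 3.17), whereas 34 of 35 libraries had a column within 0.01. The signal table has 6 AL-NIA columns for 5 samples, and these columns were not compared with its scores. The group label of CR-NIA replicate 1 was thus not checked. All 3 were kept, and the counts of P450 members that passed are given with and without them.

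The promoters are printed of the 4 P450 genes that were at least 1.9-fold lower on the WIS diet in the fit of all 40 libraries. These genes carry the diet result below. The windows run from 250 bases before to 50 bases after the RefSeq start in build GRCm38.p6, on the gene's own strand, and capitals mark the nuclear receptor half-site AGGTCA or its variant AGTTCA, read on either strand (TGACCT or TGAACT when it lies on the other). Cyp2c29, Cyp2c37 and Cyp2c50 lie on the plus strand at chr19:39286835-39287134, chr19:39992174-39992473 and chr19:40089429-40089728, and Cyp3a25 lies on the minus strand at chr5:146009569-146009868.
Cyp2c29: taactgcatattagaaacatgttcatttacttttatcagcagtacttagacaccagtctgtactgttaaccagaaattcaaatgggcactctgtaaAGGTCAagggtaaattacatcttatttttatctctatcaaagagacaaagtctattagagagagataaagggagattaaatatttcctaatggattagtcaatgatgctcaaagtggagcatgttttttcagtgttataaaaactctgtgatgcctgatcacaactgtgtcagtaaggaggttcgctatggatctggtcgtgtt
Cyp2c37: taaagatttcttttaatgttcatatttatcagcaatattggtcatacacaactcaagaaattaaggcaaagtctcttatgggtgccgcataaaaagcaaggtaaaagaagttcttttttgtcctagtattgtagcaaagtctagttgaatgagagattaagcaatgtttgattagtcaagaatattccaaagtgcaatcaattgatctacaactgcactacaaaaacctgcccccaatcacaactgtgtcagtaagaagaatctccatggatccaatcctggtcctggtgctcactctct
Cyp2c50: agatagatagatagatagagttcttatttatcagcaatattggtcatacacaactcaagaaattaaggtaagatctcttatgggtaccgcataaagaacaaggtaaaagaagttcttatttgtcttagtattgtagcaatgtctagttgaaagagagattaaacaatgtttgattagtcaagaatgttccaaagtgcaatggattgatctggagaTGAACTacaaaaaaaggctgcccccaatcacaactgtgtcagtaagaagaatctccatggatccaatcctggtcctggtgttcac
Cyp3a25: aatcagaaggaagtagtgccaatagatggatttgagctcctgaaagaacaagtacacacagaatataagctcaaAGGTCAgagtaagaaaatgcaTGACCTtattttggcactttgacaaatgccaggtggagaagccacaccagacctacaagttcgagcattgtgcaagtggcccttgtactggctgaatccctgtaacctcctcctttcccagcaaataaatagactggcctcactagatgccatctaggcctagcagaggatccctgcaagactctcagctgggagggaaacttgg

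The Cyp2c37 and Cyp2c50 windows were the same at 264 of 305 aligned positions (86.56%), and the 2 genes are separated on chromosome 19 by Cyp2c54 alone. The Cyp2c29 window matched that of Cyp2c37 at 60.12% and that of Cyp2c50 at 60.99% of aligned positions. AGGTCA stood once in the Cyp2c29 window and at 2 places in that of Cyp3a25. AGTTCA stood once in the Cyp2c50 window, and neither stood in that of Cyp2c37. Of the 33 members with a window in the RefSeq table, 9 held AGGTCA (27.27%), against 4335 of 27025 windows of all genes (16.04%): Cyp2b9, Cyp2b13, Cyp2b23, Cyp2c29, Cyp2c39, Cyp2c70, Cyp2d40, Cyp2f2 and Cyp3a25. AGTTCA was in 4 member windows (12.12%), those of Cyp2c50, Cyp4f13, Cyp4v3 and Cyp26a1, against 3790 of all (14.02%). A match describes these letters only and says nothing of binding.

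**Figure D1:**
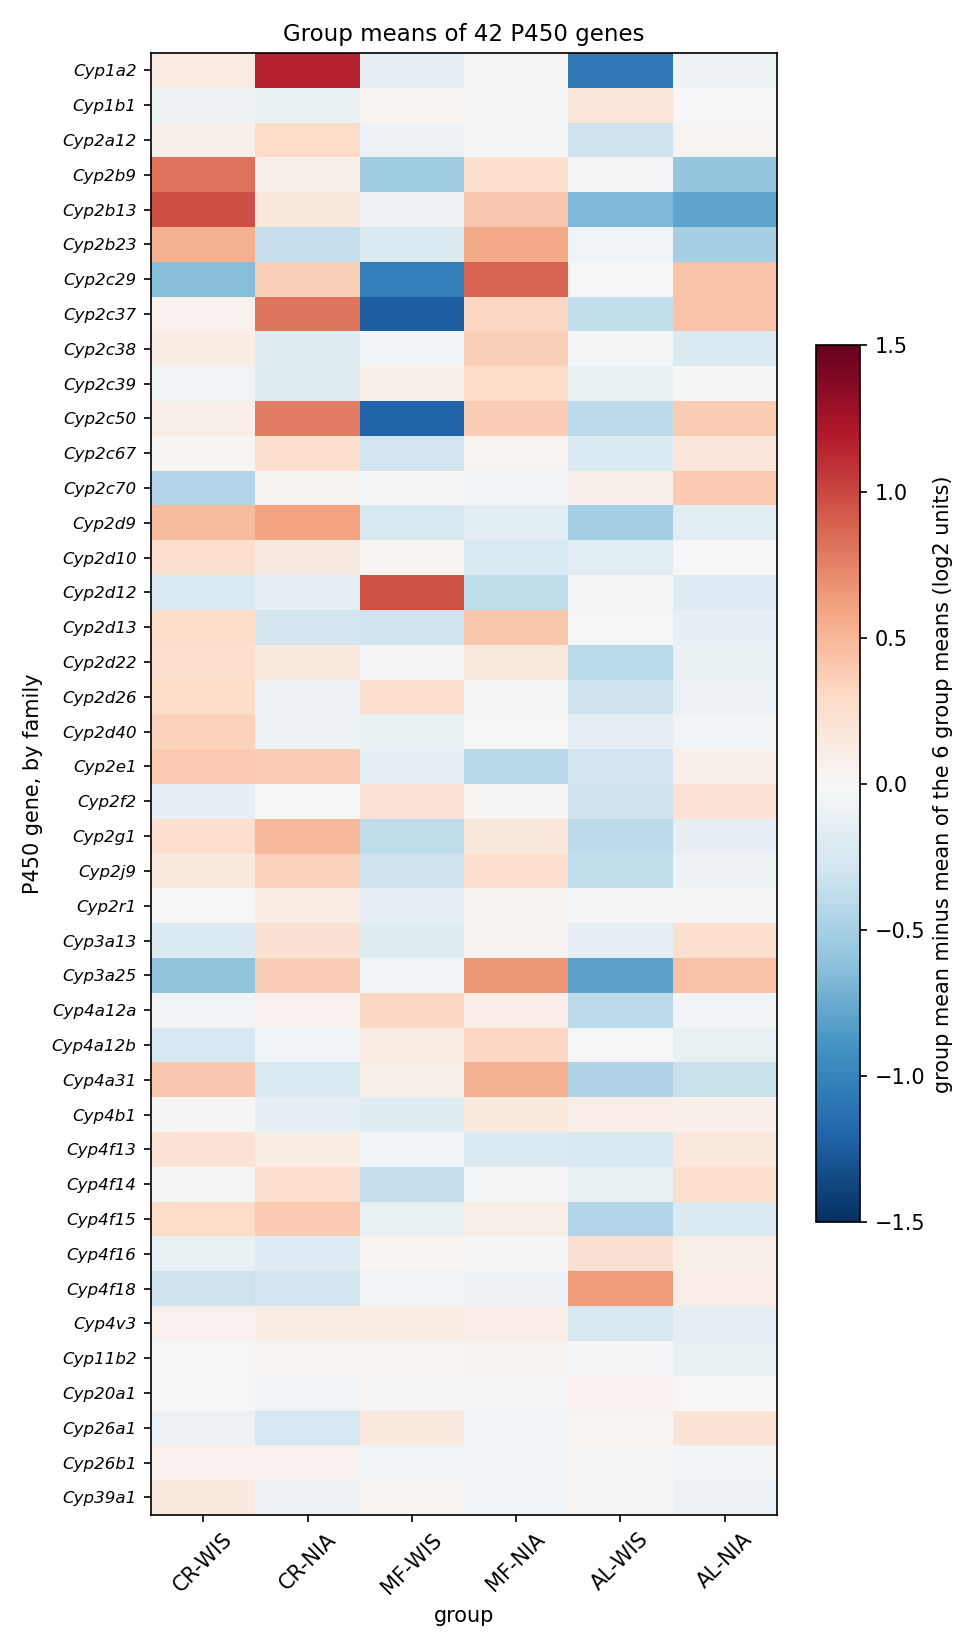
Mean level of each of the 42 P450 genes in the 6 groups (columns, CR, MF and AL, each on WIS and NIA), shown as the difference from that gene's mean over the groups in log2 units; rows are ordered by family. Cyp3a25 and Cyp2c29 are lower in each WIS column than in the NIA column of the same regimen, and Cyp1a2 is highest in CR-NIA.

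The diet comparison asked what the sucrose-rich WIS diet did against the NIA diet, over the mean of the 3 regimens. Cyp3a25, a Cyp3a enzyme of drug and steroid oxidation, and 3 members of the Cyp2c cluster were about 2-fold lower on WIS, and Cyp3a13, a second Cyp3a enzyme, was slightly lower. These 5 members passed as lower and 0 as higher, of 42, beside 1.27% lower and 1.48% higher among all genes. With the 3 libraries left out 6 members passed, all lower, beside 4.11% of all genes in either direction. The differences were smaller then, at 1.73-fold for Cyp3a25, 1.53-fold for Cyp2c29, 1.40-fold for Cyp2c37 and 1.39-fold for Cyp2c50. The member median was -0.04, against 0.01 over all genes, and was 0.03 without the 3 libraries.

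Cyp3a25, which lies beside Cyp3a11 on chromosome 5, was lower on WIS in each regimen. Under CR its level ran from 3.32 through a median of 3.62 to 4.12 in CR-WIS and from 4.15 through 4.54 to 5.27 in CR-NIA, so that the groups did not overlap. Under MF the levels were 4.27, 4.06, 4.23 and 4.18 in MF-WIS, all below MF-NIA with 4.30, 5.04 and 5.37 as lowest, median and highest. Ad libitum they were 0.68, 3.97 and 4.53 in AL-WIS as lowest, median and highest, the lowest being replicate 1, against 4.76, 4.89, 4.73, 4.60 and 4.45 in AL-NIA. The AL groups overlapped by 1 AL-WIS library. Over the regimens Cyp3a25 was 1.97-fold lower on WIS (log2 -0.98, SE 0.20, limma adjusted p = 0.00593), and 1.73-fold lower without the 3 libraries (log2 -0.79, adjusted p = 5.68e-05). It kept its call in all 7 alternatives run and with each of the 40 libraries left out in turn.

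Cyp2c29 oxidises drugs and epoxidises arachidonic acid and is a known target of CAR in mouse liver. Its level ran from 2.25 through 3.10 to 3.47 in CR-WIS and from 3.22 through 4.06 to 5.28 in CR-NIA. In MF-WIS it was 3.37, 3.40, 3.38 and 0.30, against 3.87, 4.50 and 5.10 as lowest, median and highest in MF-NIA. Every MF-WIS library was under every MF-NIA library, and MF-WIS replicate 4 lay far under the other 3. In AL-WIS it ran from 0.91 through 4.0 to 4.91, and in AL-NIA it was 4.41, 4.05, 4.30, 3.46 and 4.15, so the AL groups overlapped. Over the regimens it was 2.16-fold lower on WIS (log2 -1.11, SE 0.26, adjusted p = 0.0196), and 1.53-fold lower without the 3 libraries (log2 -0.62, adjusted p = 0.00884). This call, too, was kept in all 7 alternatives and all 40 leave-outs.

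Cyp2c37 and Cyp2c50, which in mouse form eicosanoids from arachidonic acid, gave almost the same values, and close copies can share probe signal. Cyp2c37 ran from 5.86 through 6.13 to 6.61 in CR-WIS and from 6.40 through 6.87 to 7.55 in CR-NIA. In MF-WIS it was 5.44, 5.99, 6.46 and 1.72, against 6.08, 6.45 and 6.85 in MF-NIA. The last MF-WIS value, of replicate 4, lay more than 3 units under the other 3. In AL-WIS it ran from 2.94 through 6.23 to 6.87, the lowest again being replicate 1, and in AL-NIA it was 6.49, 7.35, 6.69, 5.77 and 6.54. Over the regimens Cyp2c37 was 2.04-fold lower on WIS (log2 -1.03, SE 0.29, adjusted p = 0.0417), and 1.40-fold lower without the 3 libraries (log2 -0.49, adjusted p = 0.0225). Of its other probes, 1 was lower by a like size (log2 -1.06, adjusted p = 0.0409) and 1 did not pass (log2 -0.33, adjusted p = 0.262).

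Cyp2c50 was 2.01-fold lower on WIS (log2 -1.01, SE 0.29, adjusted p = 0.0457), and 1.39-fold lower without the 3 libraries (log2 -0.47, adjusted p = 0.0335). Its second probe was lower as well (log2 -0.83, adjusted p = 0.0304). It had 5.39, 5.83, 6.33 and 1.46 in MF-WIS, against 5.95, 6.30 and 6.79 in MF-NIA as lowest, median and highest. MF-WIS replicate 4 was thus the low library for both genes. The call of Cyp2c50 was kept with 12 of 40 single libraries left out, and that of Cyp2c37 with 24 of 40. Cyp3a13 was 1.27-fold lower (log2 -0.35, SE 0.10, adjusted p = 0.0443), a call lost without the 3 libraries (log2 -0.25, adjusted p = 0.0753), and neither of its other probes passed.

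**Figure D2:**
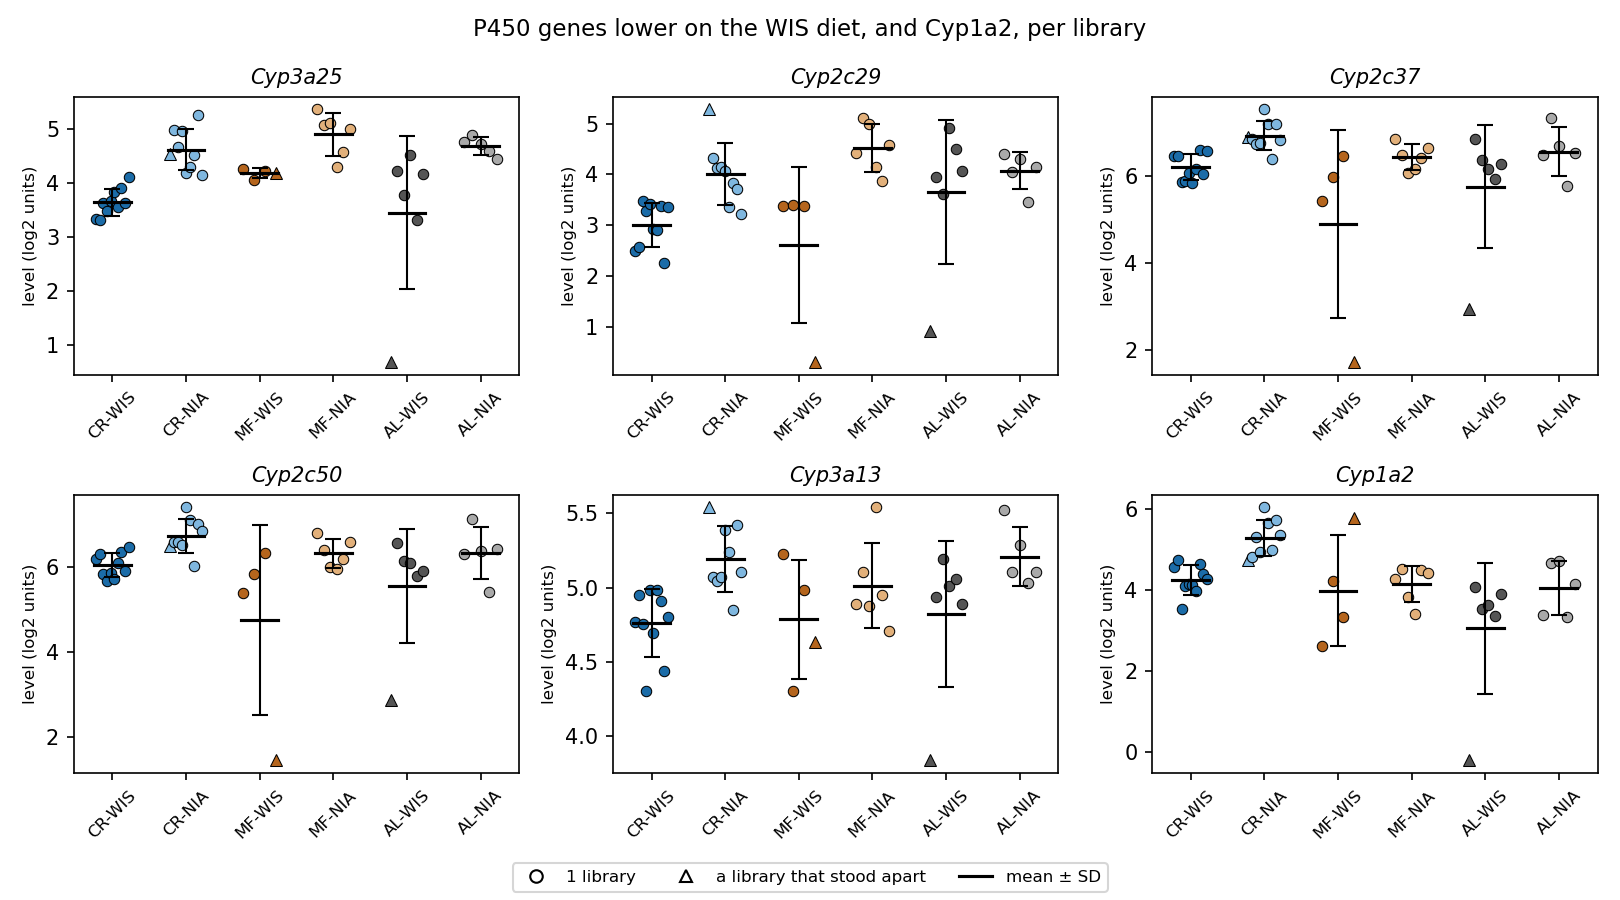
Level (log2 units) of 6 P450 genes in each library, by group, with the group mean ± SD; triangles are the 3 libraries that stood apart. Cyp3a25, Cyp2c29, Cyp2c37, Cyp2c50 and Cyp3a13 passed as lower on WIS over the mean of the regimens, and the low Cyp2c37 and Cyp2c50 points of MF-WIS (1.72 and 1.46) are replicate 4.

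Cyp1a2, the caffeine and arylamine oxidase of the liver and an AhR target, did not pass over the regimens (log2 -0.74, SE 0.27, adjusted p = 0.126). Leaving out the 3 libraries, it was 1.67-fold lower on WIS (log2 -0.74, SE 0.16, adjusted p = 0.00575). The difference over the regimens was of like size and the error smaller, but group means moved in opposite ways. The AL-WIS mean went from 3.05 to 3.70 without replicate 1 (-0.21), and the MF-WIS mean from 3.98 to 3.38 without replicate 4 (5.78). Cyp1a2 lies on chromosome 9 beside Cyp1a1, which was not measured. Cyp2g1, known as an enzyme of the olfactory mucosa, had log2 -0.36 (adjusted p = 0.0741) with all libraries and passed without the 3 (log2 -0.38, adjusted p = 0.0459). Cyp2c67 had log2 -0.32 (adjusted p = 0.0741), Cyp2j9 -0.36 (adjusted p = 0.150) and Cyp2c70, which in mouse makes muricholic acids, -0.26 (adjusted p = 0.226). The positive differences were led by Cyp2d12 at 0.48 (adjusted p = 0.148), and its level in MF-WIS replicate 4 was 3.47.

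Within single regimens fewer members passed. Under CR, 1 member, Cyp3a25, was lower on WIS (1.96-fold, log2 -0.97, SE 0.27, adjusted p = 0.0377) and 0 were higher, beside 1.31% lower and 1.5% higher among all genes. With the 3 libraries left out 7 passed under CR, beside 11.1% of all genes in either direction. Cyp1a2 (log2 -1.11), Cyp3a25 (-0.98), Cyp2c29 (-0.84), Cyp2c37 (-0.74), Cyp2c50 (-0.72) and Cyp3a13 (-0.39) were then lower, and the transcribed pseudogene Cyp2d13 was higher (0.63). Ad libitum 0 members passed, beside 0.0251% of all genes (0 beside 0.188% without the 3). There 5 of 42 members had an unadjusted p under 0.05, beside 1050 of 7958 genes. Cyp3a25 had the smallest p there (log2 -1.24, adjusted p = 0.165, and -0.68 without the 3 libraries). Under MF 0 members passed, beside 0.0% of all genes (0 beside 0.0126% without the 3). There 7 of 42 members had an unadjusted p under 0.05, beside 843 of 7958 genes. With all libraries Cyp2c29 had log2 -1.91 under MF (adjusted p = 0.268), and -1.14 without MF-WIS replicate 4 and the other 2 (adjusted p = 0.139).

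Caloric restriction was compared with ad libitum feeding within each diet. On WIS, 6 members rose and 1 fell, beside 6.55% higher and 7.77% lower among all genes. The 6 that rose were the fatty acid hydroxylase genes Cyp4f15 and Cyp4f13, Cyp2d22 and Cyp2d26 of the drug-oxidising Cyp2d cluster, Cyp1a2 and Cyp2g1. The 1 that fell was Cyp4f18, whose product inactivates leukotriene B4 in mouse neutrophils. The member median was 0.26 (31 of 42 differences above 0), against -0.01 over all genes, and was -0.01 without the 3 libraries. Only AL-WIS replicate 1 of these is in the groups compared, so the shift of the median rested on that library. When the 3 libraries were left out, 3 members rose and 3 fell, beside 9.58% of all genes in either direction.

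Cyp2d22 ran from 5.00 through 5.24 to 5.63 in CR-WIS and from 3.43 through 4.81 to 5.15 in AL-WIS, and 7 of 10 CR-WIS libraries lay above all AL-WIS libraries. It rose 1.56-fold (log2 0.64, SE 0.16, adjusted p = 0.00836) and by log2 0.40 without the 3 libraries (adjusted p = 0.0264). Its call was kept with each of the 16 CR-WIS and AL-WIS libraries left out. Cyp4f15 ran from 2.61 through 2.90 to 3.25 in CR-WIS and from 0.66 through 2.51 to 2.75 in AL-WIS, with 8 of 10 CR-WIS libraries above all AL-WIS libraries. It rose 1.64-fold (log2 0.72, SE 0.19, adjusted p = 0.0151; log2 0.41, adjusted p = 0.0201 without the 3). For both genes AL-WIS replicate 1 was the lowest library, at 3.43 and 0.66.

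Cyp2g1 was detected on 8 of 10 CR-WIS arrays and on 0 of 6 AL-WIS arrays, so it passed the detection rule through the groups where it was higher. Its level ran from -0.85 through -0.11 to 0.53 in CR-WIS and from -0.97 through -0.77 to -0.57 in AL-WIS. Against the detection floor of AL-WIS it was at least 1.29-fold higher in CR-WIS (measured means -0.13 and -0.76, adjusted p = 0.0178). That bound takes the mean over all 10 CR-WIS arrays against, per AL-WIS array, the higher of the group's mean lowest detected level and the probe's own. Its other probe rose as well (log2 0.57, adjusted p = 0.0158), and the call held without the 3 libraries (adjusted p = 0.0282). Cyp2g1 lies on chromosome 7 between Cyp2b19 and Cyp2a5.

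Cyp1a2 ran from 3.52 through 4.20 to 4.74 in CR-WIS and from -0.21 through 3.58 to 4.08 in AL-WIS, and rose 2.29-fold (log2 1.20, SE 0.42, adjusted p = 0.0488). Without AL-WIS replicate 1 and the other 2 libraries it had log2 0.54 (adjusted p = 0.152), and its second probe did not pass (log2 1.11, adjusted p = 0.0713). Cyp2d26 rose 1.5-fold (log2 0.59, SE 0.20, adjusted p = 0.048) and Cyp4f13 1.38-fold (log2 0.47, SE 0.16, adjusted p = 0.0421). Neither passed without the 3 libraries (log2 0.26, adjusted p = 0.254, and 0.33, adjusted p = 0.175). In Cyp2d26, too, AL-WIS replicate 1 stood lowest, at 3.56, where the other 5 lay between 5.18 and 5.92. The other probes of Cyp2d26 did not pass here (log2 0.46, limma adjusted p = 0.214, and 0.44, adjusted p = 0.216).

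Cyp4f18 ran from -0.53 through -0.23 to 0.39 in CR-WIS and from -0.18 through 0.81 to 2.19 in AL-WIS, and was 1.93-fold lower (log2 -0.95, SE 0.25, adjusted p = 0.0113). Here AL-WIS replicate 1 was the highest library. Without the 3 libraries it was 1.60-fold lower (log2 -0.68, adjusted p = 0.0304), and its other passing probe did not pass the test (log2 -0.12, adjusted p = 0.42). Beside these values, 3 of the 4 neutrophil markers measured were lower in CR-WIS (0 without the 3 libraries), with scores from -0.61 to 0.29 in CR-WIS and from -0.42 to 3.09 in AL-WIS. Of 12 macrophage and Kupffer cell markers 8 were lower in CR-WIS (4 without the 3), with scores from -0.59 to 0.69 in CR-WIS and from -0.17 to 3.29 in AL-WIS. Of 9 stellate cell markers 6 were lower (3 without the 3), and 1 of 14 hepatocyte markers was higher (0 without the 3). The part of cell makeup in these P450 differences was not tested.

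In 2 further members the comparison passed only without the 3 libraries. Cyp2c29 was then 2.30-fold lower in CR-WIS (log2 -1.20, SE 0.22, adjusted p = 0.00147), where all 40 libraries gave log2 -0.65. AL-WIS replicate 1 had 0.91 for Cyp2c29 and the other 5 AL-WIS libraries 3.61 to 4.91. Cyp2c70 was then 1.51-fold lower (log2 -0.59, SE 0.19, adjusted p = 0.0419), and had log2 -0.52 (adjusted p = 0.0531) with all libraries.

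**Figure D3:**
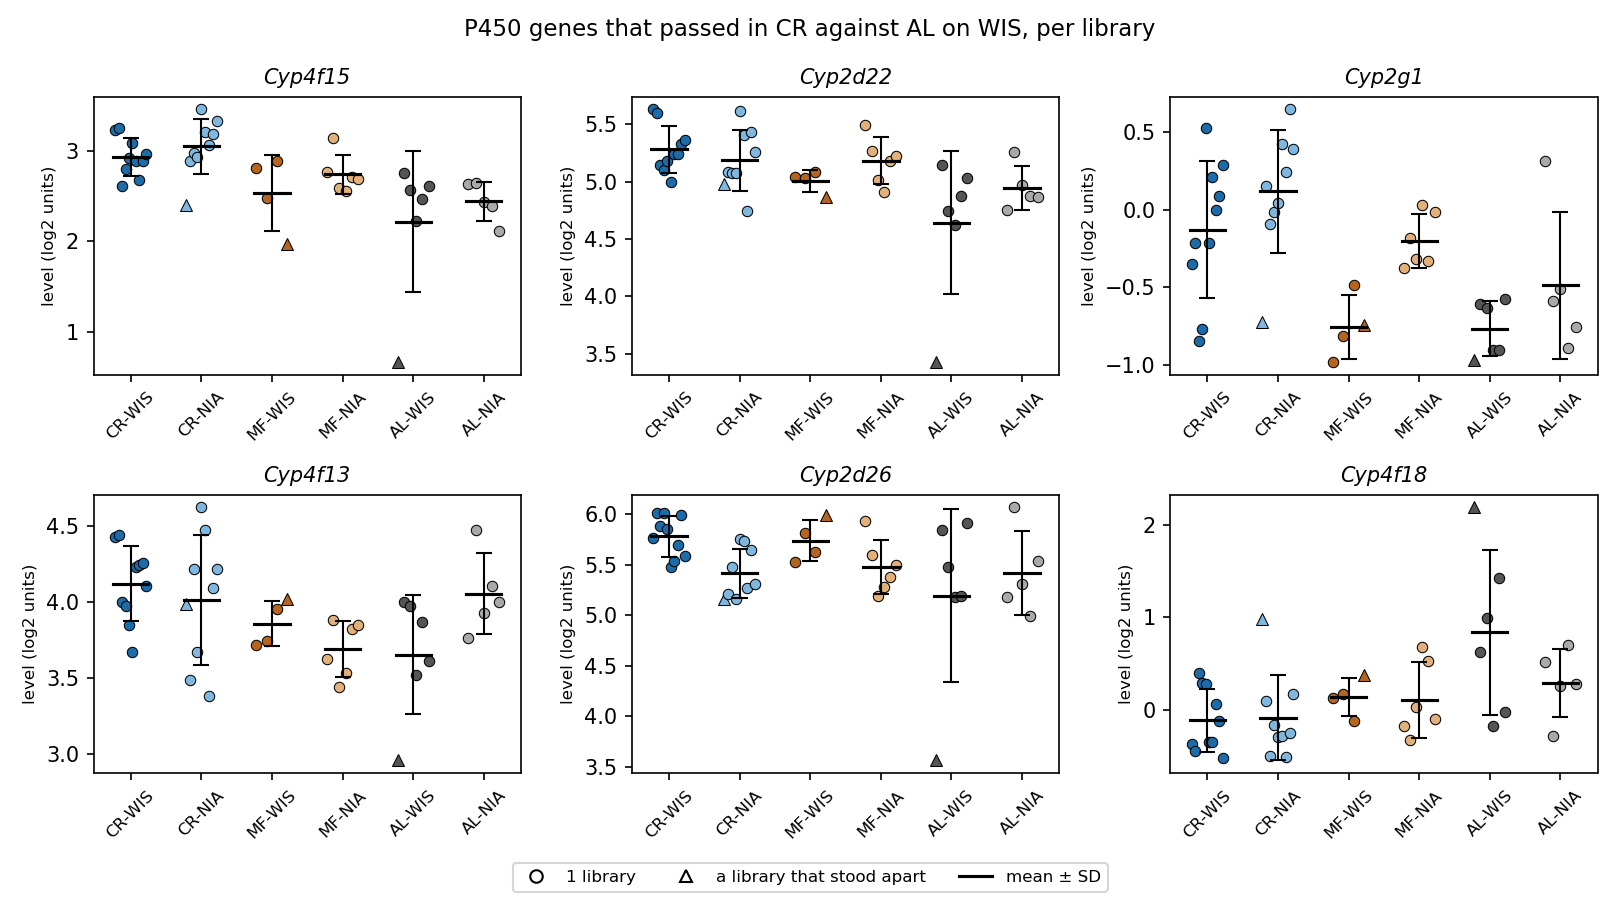
Level (log2 units) of 6 P450 genes that passed in CR against AL on WIS, in each library by group, with the group mean ± SD; triangles are the 3 libraries that stood apart. AL-WIS replicate 1 is the lowest of 6 AL-WIS points in Cyp4f15 (0.66) and Cyp2d22 (3.43) and the highest in Cyp4f18 (2.19).

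On NIA, CR against AL gave 1 member that rose, Cyp2g1, and 0 that fell, beside 4.8% higher and 6.32% lower among all genes. An unadjusted p under 0.05 was found for 5 of 42 members, beside 2074 of 7958 genes. The member median was 0.06, against -0.01 over all genes. Cyp2g1 ran from -0.72 through 0.15 to 0.65 in CR-NIA and was 0.32, -0.59, -0.51, -0.89 and -0.75 in AL-NIA, so 4 of 5 AL-NIA libraries lay at or under the level where detection began on the other arrays. The measured difference was log2 0.61 (SE 0.19, limma adjusted p = 0.0363), which rests in part on background signal and is given as no fold, while its other probe had log2 0.28 (adjusted p = 0.289). Without the 3 libraries 3 members rose and 1 fell, beside 26.9% of all genes in either direction.

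Cyp1a2 had the largest separation on NIA. It ran from 4.74 through 5.31 to 6.04 in CR-NIA and was 3.38, 4.67, 4.73, 3.32 and 4.15 in AL-NIA. All 9 CR-NIA libraries lay above all AL-NIA libraries, the lowest being replicate 1 at 4.74, whose group label was not checked. With all 40 libraries in the fit the difference did not pass (log2 1.24, SE 0.45, adjusted p = 0.0692). Without the 3 libraries it passed (log2 1.30, SE 0.26, adjusted p = 0.000257). The second probe of Cyp1a2 had log2 1.11 with all libraries and did not pass (adjusted p = 0.105). Cyp4f15, too, passed only without the 3, with log2 0.61 (adjusted p = 0.0535) and then 0.69 (adjusted p = 4.74e-05). Cyp26a1, which clears retinoic acid, had log2 -0.47 (adjusted p = 0.123) and was lower without the 3 libraries (log2 -0.56, adjusted p = 0.0118). In CR-NIA none of 12 macrophage markers passed with all libraries, and 6 were lower and 1 higher without the 3.

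The CR against AL differences on WIS and on NIA were set against each other by the interaction. It passed for 0 members, beside 0.0377% of all genes (0 beside 1.66% without the 3). An unadjusted p under 0.05 was found for 1 of 42 members, Cyp4f13 (log2 0.50, adjusted p = 0.457), beside 805 of 7958 genes. A call on 1 diet and none on the other is therefore not shown to be a difference between the diets.

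**Figure D4:**
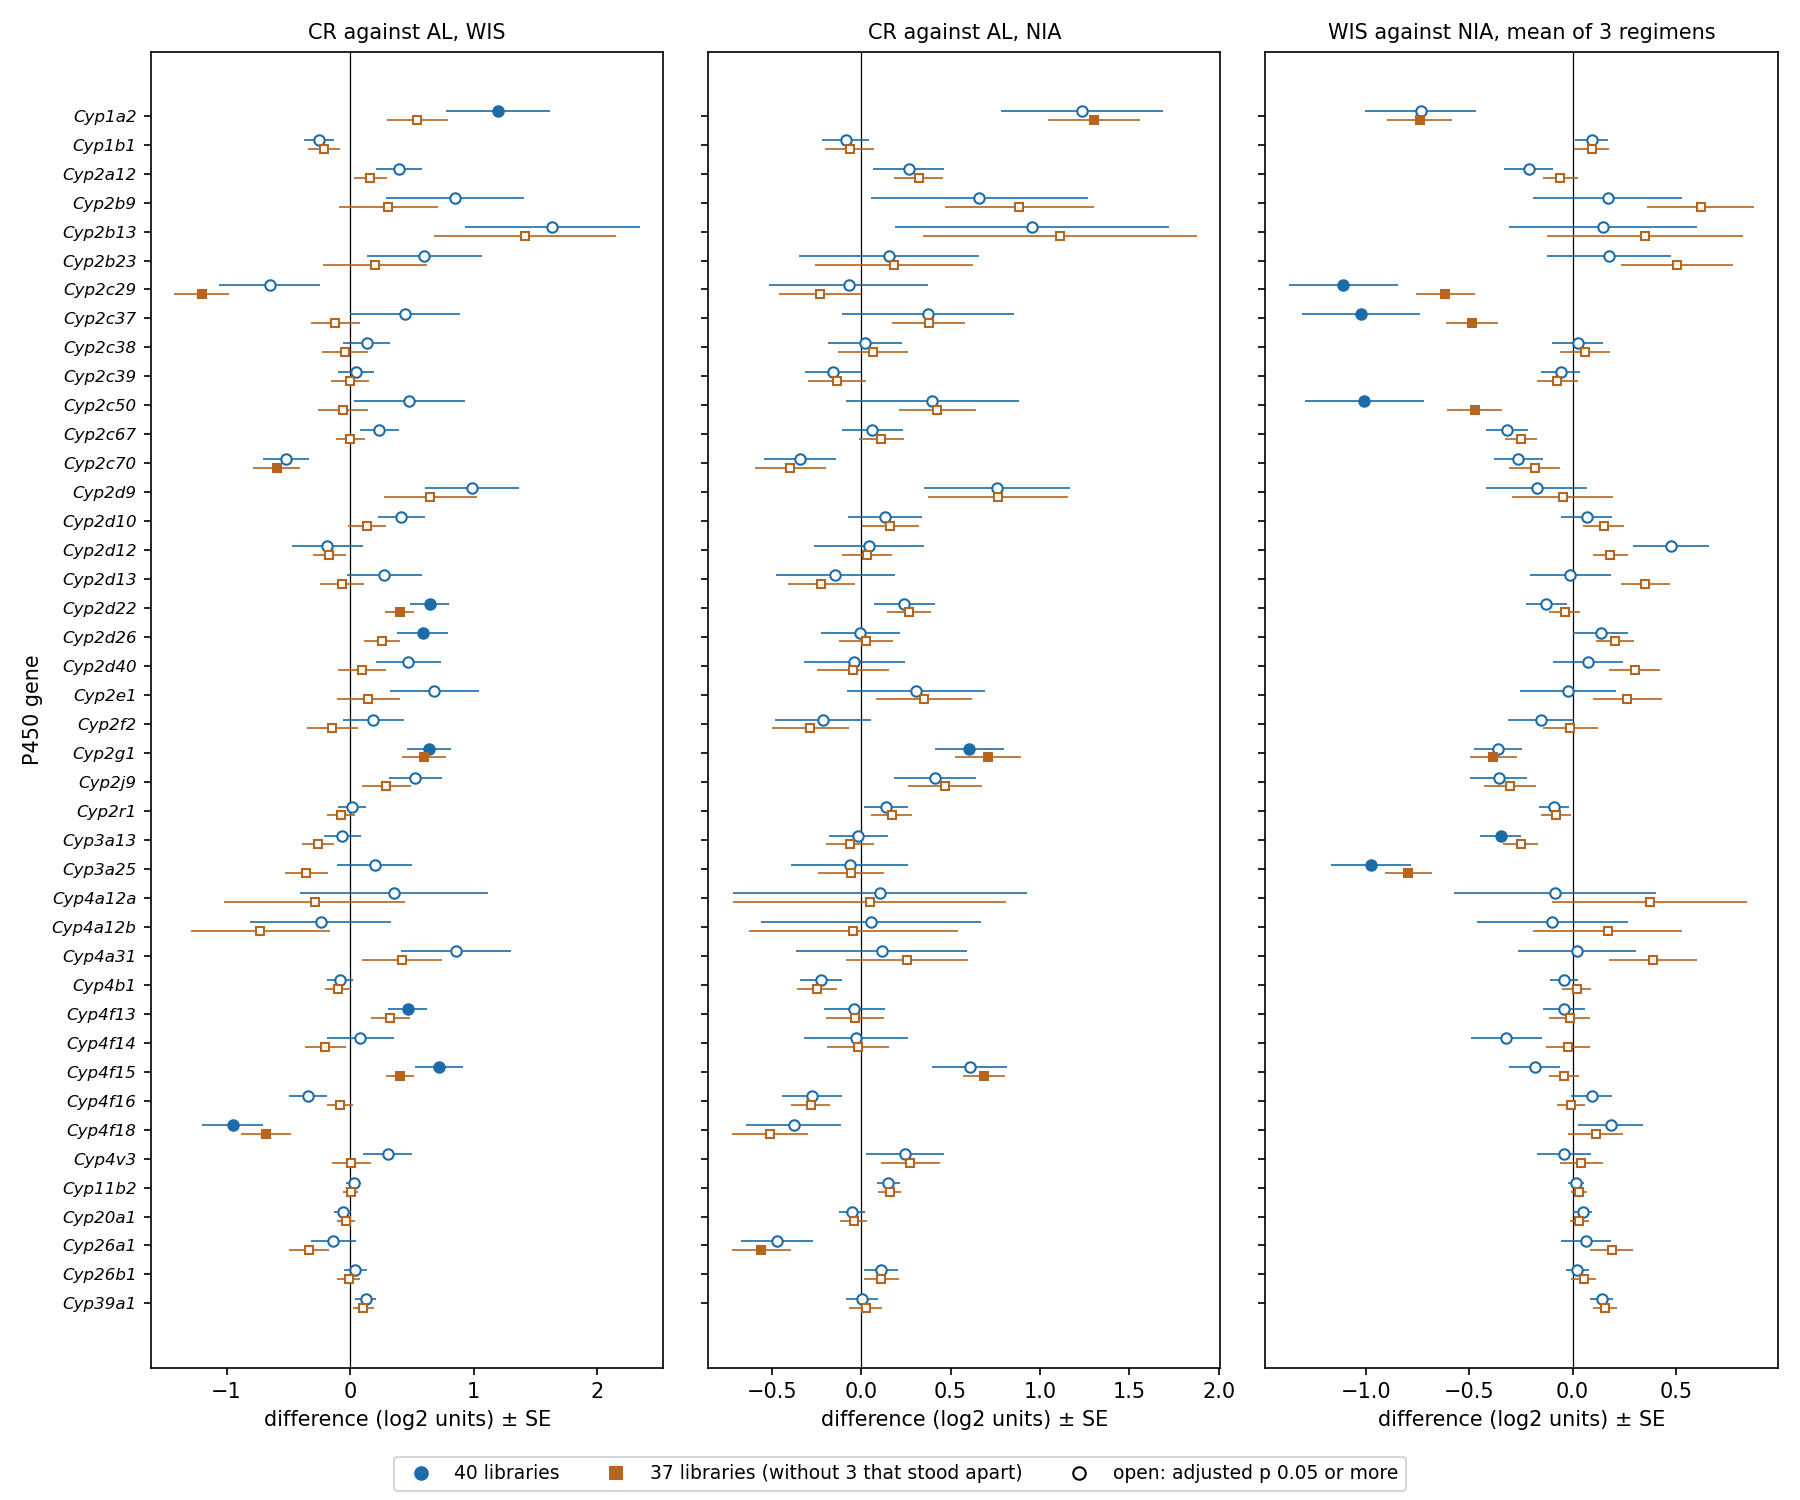
Difference ± SE (log2 units; the scales of the 3 panels differ) of all 42 P450 genes for CR against AL on WIS, CR against AL on NIA, and WIS against NIA over the mean of 3 regimens. Circles use 40 libraries and squares 37, without the 3 that stood apart; filled symbols had an adjusted p under 0.05. Cyp2g1 is filled in both fits for CR against AL on each diet, and Cyp3a25, Cyp2c29, Cyp2c37 and Cyp2c50 in both fits for the diets.

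Caloric restriction against meal feeding compares 2 regimens fed at the same hour. On NIA, 1 member fell and 0 rose, beside 9.54% lower and 5.79% higher among all genes. Cyp2c39, an epoxygenase of the mouse Cyp2c cluster, ran from -0.77 through -0.59 to -0.26 in CR-NIA and from -0.60 through 0.05 to 0.35 in MF-NIA, and was 1.37-fold lower (log2 -0.46, SE 0.15, adjusted p = 0.0325). It was detected on 4 of 8 CR-NIA and 4 of 6 MF-NIA arrays, so the fold rests in part on background signal. Cyp1a2 was higher in all 9 CR-NIA libraries than in any MF-NIA library (3.40 to 4.51) but did not pass (log2 1.13, adjusted p = 0.0652). The lowest of the 9 was replicate 1 at 4.74, whose group label was not checked. The second probe of Cyp1a2 had a smaller difference (log2 0.66, adjusted p = 0.308). Cyp2c38 (log2 -0.54, adjusted p = 0.0563) and Cyp4b1 (log2 -0.29, adjusted p = 0.0668) did not pass either.

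Without the 3 libraries, of which 1 is a CR-NIA library, 11 members passed on NIA, 6 higher and 5 lower in CR, beside 29.3% of all genes in either direction. Higher were Cyp1a2 (log2 1.20), Cyp2e1 (0.84), which oxidises ethanol and ketone bodies, Cyp2c37 (0.50), Cyp2d10 (0.39), Cyp4f15 (0.39) and the steroid hydroxylase gene Cyp2a12 (0.38). Lower were Cyp2d13 (-0.76), Cyp2c29 (-0.67), Cyp2c38 (-0.50), Cyp2c39 (-0.44) and Cyp4b1 (-0.31). Beside these, 8 of 14 hepatocyte markers were higher in CR-NIA with all libraries and 10 without the 3, with scores from -0.42 to 0.76 in CR-NIA and from -0.80 to -0.12 in MF-NIA. Their part in the P450 differences was not tested.

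On WIS, CR against MF gave 1 member, Cyp2d12, that was lower and 0 that were higher, beside 2.01% lower and 1.36% higher among all genes. Cyp2d12 was 2.24-fold lower in CR-WIS (log2 -1.17, SE 0.33, adjusted p = 0.0372). The 4 MF-WIS levels were 0.62, -0.12, -0.59 and 3.47, and the CR-WIS levels ran from -0.74 through -0.32 to 0.09. The call rested on MF-WIS replicate 4, at 3.47, without which the difference was -0.29 (adjusted p = 0.375). With the 3 left out, 0 members passed, beside 4.26% of all genes. Cyp2g1 was detected on 0 of 4 MF-WIS arrays and had log2 0.63 (adjusted p = 0.0745).

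Meal feeding against ad libitum feeding gave no member that passed, and these comparisons share their AL libraries with those of CR. On NIA 0 members passed, beside 1.96% of all genes (0 beside 6.65% without the 3 libraries). An unadjusted p under 0.05 was found for 3 of 42 members, beside 1371 of 7958 genes. These were Cyp2c38 with log2 0.56 (adjusted p = 0.187), Cyp11b2 with 0.17 (adjusted p = 0.209) and Cyp2c70 with -0.45 (adjusted p = 0.272). On WIS 0 passed, beside 0.0377% of all genes (0 beside 0.0628% without the 3). There 5 members had an unadjusted p under 0.05, beside 1177 of 7958 genes. The interaction of MF against AL with diet passed for 0 members, beside 0.0% of all genes in both fits. For it 3 members had an unadjusted p under 0.05, beside 771 of 7958 genes.

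The remaining members are given by subfamily, and none of them passed in any comparison with all libraries. Within Cyp2, the constitutive genes Cyp2a12, Cyp2c67, Cyp2c70, Cyp2d9, Cyp2d10, Cyp2e1 and Cyp2f2 were detected on all 34 arrays read. Cyp2e1 ran from 6.73 to 8.35 in CR-WIS, from 6.99 to 8.48 in CR-NIA, from 6.01 to 7.82 in MF-WIS, from 6.13 to 7.40 in MF-NIA, from 4.32 to 7.91 in AL-WIS and from 6.76 to 8.20 in AL-NIA, and all groups overlapped. Cyp2f2, which activates naphthalene in the mouse, had group means between 5.28 in AL-WIS and 5.81 in both MF-WIS and AL-NIA. Cyp2r1, a vitamin D 25-hydroxylase, lay near the detection level in every group, with means from -0.42 in MF-WIS to -0.18 in CR-NIA. Cyp2j9 had means from 0.51 in AL-WIS to 1.22 in CR-NIA, and Cyp2d40 from 2.75 in AL-WIS to 3.22 in CR-WIS.

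In family Cyp4, Cyp4f14, known in the mouse as a leukotriene B4 hydroxylase, had means from 4.34 in MF-WIS to 4.96 in AL-NIA, and Cyp4v3, a fatty acid hydroxylase, from 4.38 in AL-WIS to 4.72 in CR-NIA and MF-WIS. Cyp4f16 was at 1.15 in AL-WIS replicate 1 and at 0.03 or under in the other libraries. Cyp4a31 ran from -0.92 in AL-WIS to 3.19 in MF-NIA. Among the others, Cyp1b1, Cyp11b2 (aldosterone synthase, known from the adrenal gland), Cyp20a1, Cyp26b1 and Cyp39a1 (an oxysterol hydroxylase) had group means between -0.70 and -0.37, close to where detection begins, so a difference in them may not be detectable on these arrays. The 3 Cyp2b members, Cyp2b9, Cyp2b13 and Cyp2b23, are taken up with the sex-biased genes below.

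Probes of 1 member did not always give the same call, as in Cyp4f18 above and in Cyp2d26. Its brightest probe gave log2 -0.0050 for CR against AL on NIA, whereas the other 2 fell (log2 -0.91, adjusted p = 0.0246, and -0.80, adjusted p = 0.0383). For CR against MF on NIA these 2 fell as well (log2 -1.02, adjusted p = 0.00413, and -1.03, adjusted p = 0.00304), and for WIS against NIA under CR they rose (log2 0.80, adjusted p = 0.0342, and 0.81, adjusted p = 0.0263). For CR against MF on NIA a second probe of Cyp3a13 (log2 -0.89, adjusted p = 0.00298) and of Cyp2c67 (log2 -0.94, adjusted p = 0.00947) also fell where the brightest probe did not pass. These p-values are adjusted over all 10659 probes that passed and have a gene, and Cyp2d26, Cyp3a13 and Cyp2c67 are thus uncertain at the level of the gene.

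The widest spread within groups was found in Cyp4a12 and Cyp2b genes, most of them listed as differing between the sexes in mice. The within-group SD was 1.54 for Cyp4a12a, 1.44 for Cyp2b13, 1.15 for Cyp4a12b, 1.14 for Cyp2b9 and 0.94 for Cyp2b23. Of these Cyp2b23 is on neither list of sex-biased genes. Other listed genes spread less, with 0.77 for Cyp2d9, 0.50 for Cyp2f2, 0.39 for Cyp2c38 and 0.29 for Cyp2c39. Cyp4a12a, which makes 20-HETE and is male-biased, was at -0.48 in CR-WIS replicate 5, -0.98 in MF-NIA replicate 4, -0.80 in AL-WIS replicate 1 and -0.71 in AL-NIA replicate 1, near or under the level where detection began. It was detected on all 10 CR-WIS arrays and on 5 of 6 in both MF-NIA and AL-WIS. In the other 36 libraries it was between 1.12 and 4.71. Cyp4a12b, its neighbour on chromosome 4 and a close copy, had -0.68, -1.0, -0.91 and -0.59 in the same 4 libraries.

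Cyp2d9, a male-biased testosterone hydroxylase, had 5.16, 4.0, 3.76 and 3.65 in those libraries, which were the lowest of its 40 values. Cyp2f2, listed as male-biased too, had 4.38, 4.77, 3.62 and 5.84 there. Male-biased liver genes outside the P450 family had scores of -0.98, -0.87, -1.18 and -1.01 there, in a range from -1.28 (MF-WIS replicate 4) to 1.02 over all libraries. Female-biased genes outside the family had 0.65, 0.55, -0.35 and 1.21, in a range from -0.52 to 1.21. The female-biased P450 genes measured had scores of 1.2295, 0.5614, -1.4994 and 0.1047 there, in a range from -1.4994 to 1.3729. AL-WIS replicate 1 was thus the lowest of all libraries for the female-biased P450 genes, and was low in male-biased genes as well. The 4 livers lie in 4 groups and all come from mice labelled male. The female-biased Cyp2b13 ran from -0.11 to 4.0 in CR-WIS and from -0.92 to 2.73 in AL-WIS, with log2 1.64 (SE 0.71, adjusted p = 0.110) between them. Of the 11 female-biased P450 genes listed 4 were measured, and of the 5 male-biased ones 4.

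**Figure D5:**
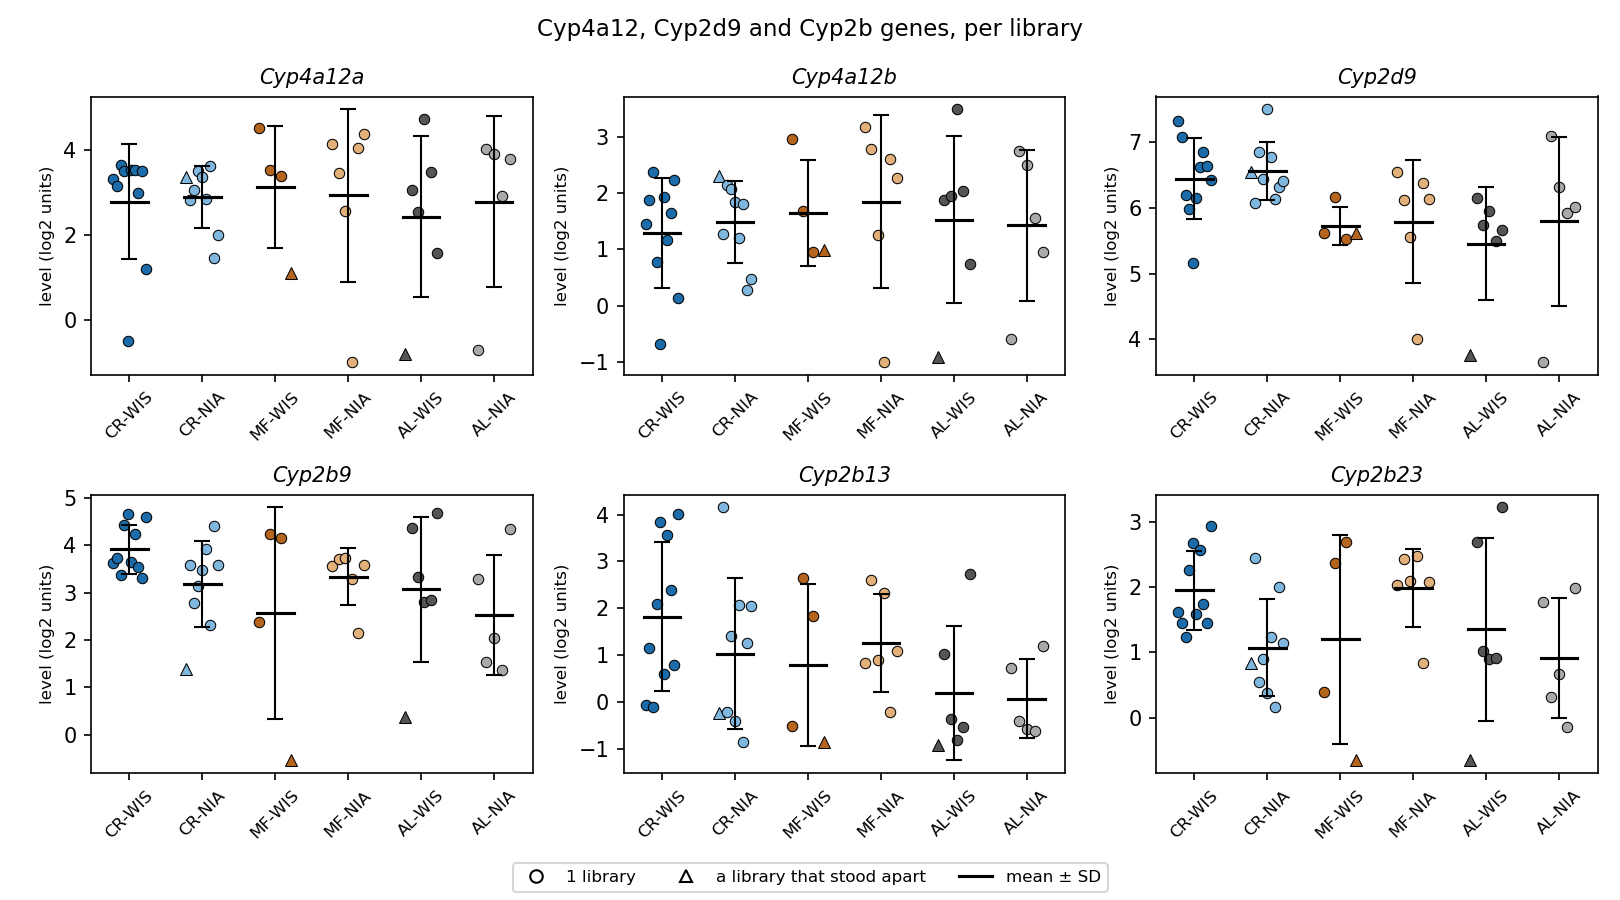
Level (log2 units) of the male-biased genes Cyp4a12a, Cyp4a12b and Cyp2d9 and of the Cyp2b genes in each library by group, with the group mean ± SD; triangles are the 3 libraries that stood apart. In Cyp4a12a 4 libraries, 1 each in CR-WIS, MF-NIA, AL-WIS and AL-NIA, lie between -0.98 and -0.48 and the others at 1.12 or above.

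Genes that act with the P450 family were counted from lists. The counts that follow stand beside these shares of all genes that passed, higher and lower (either direction without the 3 libraries). CR against AL had 6.55% and 7.77% (9.58%) on WIS and 4.8% and 6.32% (26.9%) on NIA. CR against MF had 5.79% and 9.54% (29.3%) on NIA and 1.36% and 2.01% (4.26%) on WIS. WIS against NIA over the regimens had 1.48% and 1.27% (4.11%). Of 26 regulators 18 were measured (Ahr and Arnt were among those not), and 5 rose and 0 fell in CR against AL on WIS (4 and 0 without the 3 libraries). The xenobiotic receptors Nr1i3 (CAR) and Nr1i2 (PXR) rose by log2 1.00 (SE 0.25, adjusted p = 0.0104) and 0.77 (SE 0.19, adjusted p = 0.00881), and the bile acid receptor Nr1h4 (FXR) by 0.73 (adjusted p = 0.0111). All 3 passed without the 3 libraries (adjusted p = 0.0296, 0.0191 and 0.0139). On NIA 0 regulators rose and 1 fell (3 and 1 without the 3). The 1 that fell with all libraries was Nfe2l2 (NRF2, the oxidative stress factor; log2 -0.84, adjusted p = 0.00159), and Nr1i2 had 0.58 (adjusted p = 0.0599). For CR against MF, Nfe2l2 (log2 -0.89, adjusted p = 0.000305) and Bcl6 (log2 -1.54, adjusted p = 0.0224), a repressor linked to sex-biased P450 genes, fell on NIA, where 0 regulators rose (3 rose and 2 fell without the 3), and Nr1i3 rose on WIS (log2 1.09, adjusted p = 0.0309; 0.0684 without the 3). Over the diets 1 regulator fell on WIS (2 without the 3), Ppara, the fatty acid receptor that drives Cyp4a genes (log2 -0.39, SE 0.09, adjusted p = 0.0197).

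Of 9 genes of heme supply 8 were measured. Alas1, the rate-limiting enzyme of heme synthesis in liver, rose in CR on WIS (3.64-fold, log2 1.86, SE 0.39, adjusted p = 0.00364) and on NIA (2.52-fold, log2 1.33, SE 0.42, adjusted p = 0.0332), and against MF on WIS (log2 1.52, adjusted p = 0.0471; 0.0992 without the 3). In CR against AL, Urod also rose on WIS (log2 0.43, adjusted p = 0.0178; 0.0673 without the 3) and Uros fell on NIA (log2 -0.61, adjusted p = 0.00327). Without the 3 libraries 1 of the 8 rose on WIS, and 1 rose and 2 fell on NIA. In CR against MF on NIA 2 of the 8 rose, Alad and Urod, and 2 fell, among them Fech (log2 -0.59, adjusted p = 0.00209), beside 3 and 2 without the 3. Of 8 electron donors 4 were measured, Por not among them, and Cyb5a, cytochrome b5, rose in CR against MF on NIA (log2 0.48, adjusted p = 0.0306), where 2 of the 4 rose without the 3. None of the 3 measured AhR targets outside the P450 family passed in any comparison with all libraries. Without the 3 libraries, Ugt1a6a, a conjugating enzyme, rose in CR against AL on NIA (log2 0.39, adjusted p = 0.0169). It was 1 of 3 on the list, beside 26.9% of all genes in either direction, and the list's median in that fit was log2 0.01. Of 7 measured retinoid genes 1 rose in CR against AL on NIA (1 rose and 1 fell without the 3). On WIS 2 rose and 1 fell with all libraries, whereas 1 rose and 2 fell without the 3, and the list's median was log2 0.10 and then -0.31. The smallest adjusted p was that of the retinol dehydrogenase gene Rdh9 on both diets (log2 1.36, adjusted p = 0.0154 on NIA, and 1.27, adjusted p = 0.0152 on WIS).

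Pericentral hepatocytes hold most drug-oxidising P450 enzymes, and their markers were counted as well. None of 11 measured pericentral markers passed in any comparison with all libraries. When the 3 were left out, 1 was higher in CR against AL on NIA, 1 lower in CR against MF on NIA and 1 lower on WIS over the regimens. Of 11 periportal markers, Pck1, which makes glucose and follows fasting, rose in CR against AL on WIS (log2 1.14, adjusted p = 0.0181), where 1 other marker fell, and on NIA (log2 1.05, adjusted p = 0.0429). Without the 3, 1 rose and 1 fell on WIS, and 2 rose and 1 fell on NIA. Apoa4 was higher on WIS over the regimens (log2 2.23, SE 0.21), the 1 periportal marker that differed between the diets there. Each list was chosen with earlier results of these arrays known, and the counts describe them only.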

How the data were processed

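Liver RNA of 40 mice was measured on Illumina mouse BeadChips, 1 array each; the series text counts more arrays than the 40 analysed. For each array the authors deposited a score per probe; by the values these scores have mean 0 and SD 1 on every array, and how they were made is not given in the sources. Linear intensities of the same arrays were deposited too, per the submitters' processing notes from GenomeStudio 2011.1, each with a detection p-value, per the file headers. The headers of that signal table give groups and no samples, and count 6 AL-NIA columns for 5 samples and 8 CR-NIA columns for 9. The 6 columns were not used, and 34 were read, for detection and scale only. The plan's log2 signals could not be tied to samples by name, so scores times 1.51 stood in for log2 levels. By value, the scores of 34 of 35 libraries lay within 0.01 of a column of their group. For this match the log2 signals of each column were set to mean 0 and SD 1. The match was not used for the fit. No background was subtracted, which understates the change of dim genes. The number of arrays limits the precision.

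Of 25697 probes 23978 had 1 symbol in the platform annotation, 1719 none and 0 several, and 0 symbols changed through gene identifiers. The brightest of a gene's probes detected on at least 4 arrays stood for the gene. limma 3.58.1 (R 4.3.3) fitted 1 mean per group over all arrays, with Benjamini-Hochberg adjustment over 7958 genes per comparison, and each adjusted p of a gene is limma's. The fit was tested on simulated data. A list's score in a library is the mean over its genes of the level minus the gene's mean over libraries. The text names all members that passed, the member of each subfamily with the smallest p, a fixed list of members, and up to 3 genes of each other list; the probes of Cyp2d26, Cyp3a13 and Cyp2c67, and the 4 libraries low in Cyp4a12a, were chosen after their values were seen. Promoters came from RefSeq's windows (GRCm38.p6), and motifs and global alignments were computed from these. Probe sequences were not used here, so probes of close copies (Cyp2b, Cyp2c, Cyp2d, Cyp4a) may share signal. Members, lists, and the 3 libraries left out in one alternative, were chosen with earlier results of these data known.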

Additional observations from a re-analysis of the deposited data

Results flagged for a closer look

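In each group of 4 to 10 libraries, a library was picked out when its gap to the nearest other one, divided by the range of the group, passed Dixon's 95% critical value. Of 252 pairs of member and group 37 were picked out, in 26 members, and chance picks out about 1 in 20 groups. Values are levels in log2 units.

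AL-WIS replicate 1 accounted for 17. It was the lowest of its group for the Cyp2c genes Cyp2c29 (0.91), Cyp2c37 (2.94), Cyp2c50 (2.87) and Cyp2c67 (4.14), and for the Cyp2d genes Cyp2d9 (3.76), Cyp2d10 (4.68), Cyp2d13 (-0.17), Cyp2d22 (3.43) and Cyp2d26 (3.56). It was also the lowest for Cyp1a2 (-0.21), Cyp2e1 (4.32), Cyp2f2 (3.62), Cyp3a13 (3.83), Cyp3a25 (0.68), Cyp4f14 (3.17) and Cyp4f15 (0.66). For Cyp4f16 it was the highest (1.15).

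MF-WIS replicate 4 accounted for 5, as the lowest of its group for Cyp2a12 (4.05), Cyp2c29 (0.30), Cyp2d13 (-0.75), Cyp4a31 (-0.65) and Cyp4f14 (2.49). MF-WIS replicate 2 was the highest for Cyp2d9 (6.16).

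In MF-NIA, replicate 4 was the lowest for Cyp4a12a (-0.98) and Cyp39a1 (-0.88) and the highest for Cyp4f16 (0.030). Replicate 5 was the lowest for Cyp2b9 (2.16) and Cyp2b23 (0.83), and replicate 2 the highest for Cyp4f15 (3.14). AL-NIA replicate 1 was the lowest for Cyp4a12a (-0.71).

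In CR-NIA, replicate 1 was the highest for Cyp2d13 (1.90) and Cyp4f18 (0.98), replicate 8 for Cyp26b1 (-0.18) and Cyp39a1 (-0.29), and replicate 2 for Cyp20a1 (-0.29). In CR-WIS, replicate 5 was the lowest for Cyp2f2 (4.38) and replicate 7 for Cyp4f16 (-0.79).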

How the results depend on the processing

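Counts of P450 members that passed are given per alternative, where they moved by over 1.5 times, and none of the 16 calls of single members in a comparison reversed in the alternatives run. Counts of all genes that passed follow for most of these alternatives, out of 7958 genes unless stated. They are not given with single libraries left out. Differences that did not pass could turn: without the 3 libraries Cyp2d13 in CR against AL on WIS had log2 -0.07 (0.28 with all) and Cyp2d26 on NIA 0.03 (-0.0050 with all). CR against AL on NIA (1 member) gave 0 with no detection filter, with the mean of probes and with the replicate block. It gave 2 with detection on at least 0.5 of the arrays, with only the groups compared and with scores quantile normalized, 5 with array weights and 4 without the 3 libraries. Of all genes 885 passed in the main fit, 893 with the mean of probes, 323 with the replicate block and 828 with only the groups compared. With scores quantile normalized 957 passed, with array weights 2085 and without the 3 libraries 2139. With no filter 706 of 16593 genes passed, and with detection on at least 0.5 of the arrays 880 of 6857. Leaving out single libraries gave 0 to 4 members. CR against AL on WIS (7) gave 4 with no filter, 0 with only the groups compared and 1 with the replicate block, and 2 to 9 with single libraries left out, the 2 being without AL-WIS replicate 1. Of all genes 1139 passed in the main fit, 799 of 16593 with no filter, 362 with only the groups compared and 272 with the replicate block. MF against AL on NIA (0) gave 2 with array weights, where 910 of all genes passed, beside 156 in the main fit. CR against MF on NIA (1) gave 2 with the mean of probes, 6 with only the groups compared, 10 with array weights, 0 with quantile normalized scores, 11 without the 3 libraries and 0 to 3 with single libraries left out. Of all genes 1220 passed in the main fit, 1306 with the mean of probes and 1370 with only the groups compared. With array weights 2397 passed, with quantile normalized scores 895 and without the 3 libraries 2328. CR against MF on WIS (1) gave 0 with no filter, with the replicate block and without the 3 libraries, 3 with array weights and 0 to 3 with single libraries left out. Of all genes 268 passed in the main fit, 156 of 16593 with no filter and 5 with the replicate block. Without the 3 libraries 339 passed, and with array weights 1262. WIS against NIA under CR (1) gave 0 with no filter, with the replicate block, with quantile normalized scores or signals and with signals after neqc, 9 with only the groups compared, 8 with array weights, 7 without the 3 libraries and 0 to 1 with single libraries left out. Of all genes 223 passed in the main fit, 196 of 16593 with no filter and 120 with the replicate block. With only the groups compared 438 passed, with array weights 976 and without the 3 libraries 881. WIS against NIA under MF (0) gave 1 with array weights, beside 36 of all genes, and 0 to 1 with single libraries left out. Over the 3 regimens (5) WIS against NIA gave 2 with no filter, 2 with the replicate block and 2 to 6 with single libraries left out. Of all genes 219 passed there in the main fit, 137 of 16593 with no filter and 116 with the replicate block. The cause of these moves was not tested.

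Replicate numbers of the labels did not pair the livers: deviations of same-numbered libraries correlated at a median of -0.01 (79 pairs, -0.59 to 0.50, 25 over 0.1), as did those of other pairs (-0.01). Single calls differed in how they held. Cyp3a25 and Cyp2c29 over the 3 regimens were kept in all 7 alternatives, and Cyp2d22 in CR against AL on WIS in 9 of 10. In that comparison Cyp4f15, Cyp4f18 and Cyp2g1 were kept in 8 of 10, Cyp4f13 in 3, Cyp1a2 in 2 and Cyp2d26 in 1. Cyp2c37 and Cyp2c50 were kept in 5 of 7 and Cyp3a13 in 1 of 7. Levels near the detection floor, as for Cyp2g1, Cyp2c39 and Cyp2d12, limit what a fold can show.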

Other observations

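The differences of members of 1 gene cluster were set side by side. On chromosome 19 the 7 measured Cyp2c genes differed over the 3 regimens, WIS against NIA, by log2 -1.11 for Cyp2c29, -1.03 for Cyp2c37, -1.01 for Cyp2c50, -0.32 for Cyp2c67, -0.26 for Cyp2c70, -0.06 for Cyp2c39 and 0.02 for Cyp2c38. The first 3 passed and the last 4 did not (adjusted p = 0.0741, 0.226, 0.793 and 0.939). On chromosome 15 the 7 Cyp2d genes differed in CR against AL on WIS by 0.99 for Cyp2d9 (adjusted p = 0.070), 0.64 for Cyp2d22, 0.59 for Cyp2d26, 0.47 for Cyp2d40, 0.41 for Cyp2d10, 0.28 for Cyp2d13 and -0.18 for Cyp2d12, and Cyp2d22 and Cyp2d26 passed. AL-WIS replicate 1 moved these values: without the 3 libraries they were 0.65 for Cyp2d9, 0.40 for Cyp2d22, 0.26 for Cyp2d26, 0.10 for Cyp2d40, 0.14 for Cyp2d10, -0.07 for Cyp2d13 and -0.17 for Cyp2d12, and Cyp2d22 alone passed (adjusted p = 0.0264). Without them the Cyp2c differences between the diets were -0.62 for Cyp2c29, -0.49 for Cyp2c37 and -0.47 for Cyp2c50, and these 3 passed. The difference between members of a cluster was not tested.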
